A study of Homo sapiens with 4 samples.

Results

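Of 39 genes of the p53 response and of DNA repair, picked by name from the 60662 genes of the deposited table, 35 could be tested in NB4 cells that overexpress JMJD3. Among these 6 rose (17.1%) and 5 fell (14.3%), where 21.6% of all tested genes rose and 19.1% fell. Of the 39 members 21 were grouped as targets of the transcription factor p53, and 18 as genes of DNA repair or damage signalling. Whether p53 acts on each of the 21 in these cells was not tested. The clearest changes were a rise of CYFIP2 and falls of AEN and XRCC6.

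NB4 is a human acute promyelocytic leukemia cell line that carries the PML-RARA fusion. The study asked what raised JMJD3, a histone demethylase encoded by KDM6B, does to gene expression in leukemia cells. Messenger RNA, which the study's methods say was taken from total RNA by its polyA tails, was sequenced from NB4 cells carrying either a control vector, called vector here, or a JMJD3-expression vector, called JMJD3 here, with 2 libraries in each group. The methods of the study describe lentiviral vectors that also make GFP and sorting of transduced cells by GFP, so each group is a transduced pool of 1 line and not of several lines.

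The estimated counts summed to 39078443 and 40768225 in vector replicates 1 and 2, and to 35176388 and 34704909 in JMJD3 replicates 1 and 2. By the sample descriptions, sequencing used lane 17 for every library except vector replicate 1, which used lane 20. Levels within a gene are given as CPM, a count relative to the scaled size of its library, and levels between genes as FPKM, which also divides by transcript length. At these depths 3 reads, the floor used in each library, equal 0.0671 to 0.0925 CPM, and such floors cover counting error only. No source states that replicates were separate cultures or transductions, so p-values measure only the spread between these samples. In bulk RNA, fewer cells that express a gene and less of its RNA per cell cannot be told apart. Counts of overlapping or similar genes carry added uncertainty, since the counts were estimated and no strand setting is given.

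KDM6B, the overexpressed gene, was at 15.8 and 13.7 CPM in vector and at 37.9 and 44.1 CPM in JMJD3. Both JMJD3 libraries lay above both vector libraries, as their labels say. Its log2 fold change was 1.48 (SE 0.13, adjusted p = 0.00114, edgeR's quasi-likelihood test with Benjamini-Hochberg adjustment, higher in 2 of 2 JMJD3 libraries). The count does not separate RNA of the vector from RNA of the cells' own gene.

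Markers of promyelocytes were present, with MPO, the myeloperoxidase of their granules, at 13876, 14110, 9379 and 9421 CPM in vector replicates 1 and 2 and JMJD3 replicates 1 and 2. ELANE, another granule gene, had only 11, 7, 1 and 2 reads in that order. Of the 7 promyelocyte markers tested 3 rose (42.9%) and 4 fell (57.1%), beside 21.6% and 19.1% of all tested genes. With DESeq2 and with limma on FPKM 2 rose and 4 fell, and with no filter on low counts 2 rose and 3 fell. The log2 fold changes of the 7 tested ranged from -3.91 to 1.00 in edgeR's fit of all 4 libraries. There 2 fell and 0 rose by 2-fold or more, beside 2.82% and 7.55% of all tested genes. The 8 markers summed to 16911, 17662, 11068 and 11029.8 CPM, most of it from MPO. T cell markers summed to 13.1, 14.8, 50.4 and 46.6 CPM, most of it from TRAC, while CD3E and CD3G were at or near 0. B cell markers summed to 25.9, 30.8, 36.6 and 32.8 CPM with MS4A1 at 0 and CD79B the most abundant. Megakaryocyte markers reached at most 3.51 CPM with PF4 and GP9 at 0, fibroblast markers at most 1.08 CPM with COL1A2 and COL3A1 at 0, and all 5 erythroid markers were at 0. The part of these marker levels in the results on the members was not tested.

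p53 is a transcription factor that is held low by MDM2 and MDM4 and that accumulates when DNA damage kinases such as ATM, ATR, CHEK1 and CHEK2 signal. Its targets then slow the cell cycle, repair or tolerate damage, or start cell death, and MDM2 and PPM1D feed back to switch the response off. Broken DNA is mended by homologous recombination or by end joining, crosslinks by the Fanconi anemia proteins, and wrong bases by excision and mismatch repair.

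Of the 39 members 35 passed the filter on low counts. Among the 17 p53 targets tested, CYFIP2, POLH, XPC and BTG1 rose and AEN fell, at an adjusted p under 0.05. Among the 18 DNA repair genes, RAD50 and BRCA1 rose, and XRCC6, BRCA2, FANCA and CHEK1 fell. Thus 23.5% of the p53 targets and 11.1% of the DNA repair genes were called higher, against 21.6% of all 15246 tested genes. Called lower were 5.88% and 22.2%, against 19.1% of all tested genes. On so few genes these shares were not tested against those of the whole table, and they are no result about the members as a set. The median log2 fold change was 0.14 for the p53 targets and -0.08 for the DNA repair genes, beside 0.04 for all tested genes. With vector replicate 1 left out the 2 medians were 0.21 and -0.03, with vector replicate 2 left out 0.09 and -0.16, and without JMJD3 replicate 1 the median of the DNA repair genes was -0.05. With limma on log2(FPKM + 0.1) they were 0.27 and -0.02.

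The changes of the members were small in size. At 1.5-fold or more, CYFIP2, POLH and RAD50 rose, where 15.1% of all tested genes did, and AEN fell, where 7.90% did. No member reached 2-fold in edgeR's fit, at any p, or with DESeq2, while 7.55% of all tested genes rose and 2.82% fell by that much. With limma on FPKM, BRCA2 and PRKDC fell by 2-fold or more, and without vector replicate 1 ZMAT3 rose by 2-fold or more (log2 fold change 1.13). The CPM values of the groups did not overlap for 21 of the 35 members, against 74.4% of all tested genes. The number of DNA repair genes called depended on single libraries, with 6 higher and 4 lower without vector replicate 1, 2 higher and 6 lower without vector replicate 2, and 1 higher and 1 lower without JMJD3 replicate 1. Without JMJD3 replicate 2 it was 1 higher and 2 lower. For the p53 targets it was 5 higher and 3 lower without vector replicate 1, 4 and 2 without vector replicate 2, and 2 and 1 without JMJD3 replicate 1 or JMJD3 replicate 2. Over all tested genes, 4343 were higher and 4183 lower without vector replicate 1, 2097 and 1416 without JMJD3 replicate 1, and 1920 and 1133 without JMJD3 replicate 2, in place of 3292 and 2906.

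**Figure D1:**
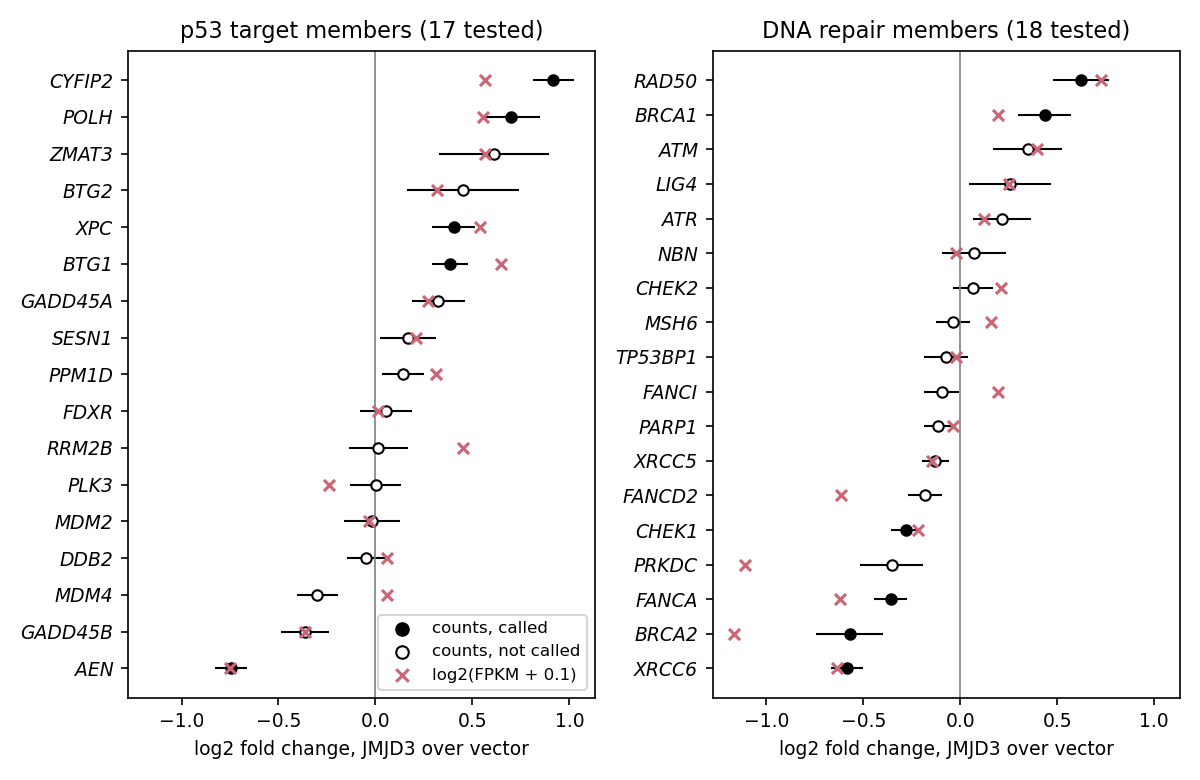
Log2 fold change of JMJD3 over vector for the 17 p53 targets and 18 DNA repair genes tested. Circles with bars give edgeR's estimate and its SE on counts, filled where the adjusted p was under 0.05, and crosses give the difference on log2(FPKM + 0.1), which lies far from the circle for PRKDC, BRCA2, FANCD2 and RRM2B.

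CYFIP2 encodes a subunit of the complex that drives actin branching and is a known p53 target. It had the largest rise among the members in edgeR's fit of all 4 libraries. Without vector replicate 1 the estimate of ZMAT3 (1.13) was above that of CYFIP2 (0.88). On log2(FPKM + 0.1) RAD50 (0.72) and BTG1 (0.65), among others, were above CYFIP2 (0.56). CYFIP2 was at 26.1 and 26.2 CPM in vector and at 46.8 and 52.1 CPM in JMJD3. Both JMJD3 libraries were high, the vector libraries were nearly equal, and the groups did not overlap. The log2 fold change was 0.92 (SE 0.10, adjusted p = 0.00205, edgeR's quasi-likelihood test with Benjamini-Hochberg adjustment, higher in 2 of 2 JMJD3 libraries), which is 1.89-fold. On log2(FPKM + 1) it was 0.52 and on log2(FPKM + 0.1) 0.56, still called, with adjusted p of 0.0395 and 0.0344 beside 3.75e-09 to 0.0395 over the 13 alternatives, the crossed block aside.

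AEN, an exonuclease gene that p53 induces during apoptosis, had the largest fall in edgeR's fit of all 4 libraries. On log2(FPKM + 0.1) BRCA2 (-1.17) and PRKDC (-1.11) had larger falls than AEN (-0.75). Without vector replicate 2 BRCA2 (-0.80) had a larger fall than AEN (-0.70). AEN was at 117 and 124 CPM in vector and at 72.1 and 72.0 CPM in JMJD3. The JMJD3 libraries were both low and almost the same, far from either vector library. Its log2 fold change was -0.74 (SE 0.08, adjusted p = 0.00197, edgeR's quasi-likelihood test with Benjamini-Hochberg adjustment, lower in 2 of 2 JMJD3 libraries), and it was called under all 13 alternatives. The gene identifiers in the table are ENSG00000055163 for CYFIP2 and ENSG00000181026 for AEN.

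The other members of the death and autophagy group were hardly expressed. PHLDA3, an inhibitor of AKT signalling, had no read in any library. TP53INP1, an autophagy and death gene, had 3, 7, 1 and 2 reads in vector replicates 1 and 2 and JMJD3 replicates 1 and 2, which are near the floor. Neither passed the filter on low counts, so neither was tested with that filter and no fold is given.

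Promoter windows from RefSeq on GRCh38.p14, 250 bases before to 50 bases after a gene start, were found for 31 of the 39 members, in 51 windows. The promoter set used here held no entry for TP53INP1, XRCC5, PRKDC, NBN, PHLDA3, GADD45A, FANCI or RRM2B, which does not mean that RefSeq lacks these genes. The p53 half-site was searched on both strands as RRRCWWGYYY, where R is A or G, W is A or T and Y is C or T. It was matched in 6.63% of 35116 promoters and in 5 of the 51 member windows. These were the windows of AEN, DDB2 (with 2 matches), FDXR, SESN1 and PLK2, all p53 targets. Members with several windows have more chances of a match. Of these genes AEN fell, PLK2 was under the floor, and DDB2, FDXR and SESN1 were not called. CYFIP2, POLH, XPC and BTG1 rose and hold no match in these windows, which says only that these letters are not there. The sequences show 4 windows with a match and 1 of the 2 windows of CYFIP2 without one, each 5′ to 3′ on the strand of its gene, with the half-site in capitals. They are shown because these 5 targets did not change together, and a match is a description and not a site of binding.
AEN, chr15:88621090-88621389, plus strand: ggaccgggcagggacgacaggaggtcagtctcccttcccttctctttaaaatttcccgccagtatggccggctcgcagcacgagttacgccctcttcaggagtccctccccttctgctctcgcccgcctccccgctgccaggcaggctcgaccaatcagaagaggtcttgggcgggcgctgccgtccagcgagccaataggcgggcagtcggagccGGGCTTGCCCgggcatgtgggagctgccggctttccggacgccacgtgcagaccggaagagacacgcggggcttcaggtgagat
DDB2, chr11:47214724-47215023, plus strand: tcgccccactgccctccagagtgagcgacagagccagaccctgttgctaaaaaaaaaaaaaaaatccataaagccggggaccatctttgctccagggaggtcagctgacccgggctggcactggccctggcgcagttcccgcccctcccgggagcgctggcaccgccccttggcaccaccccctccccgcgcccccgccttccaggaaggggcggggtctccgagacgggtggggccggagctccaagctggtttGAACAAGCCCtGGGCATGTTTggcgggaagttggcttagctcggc
FDXR, chr17:74872945-74873244, minus strand: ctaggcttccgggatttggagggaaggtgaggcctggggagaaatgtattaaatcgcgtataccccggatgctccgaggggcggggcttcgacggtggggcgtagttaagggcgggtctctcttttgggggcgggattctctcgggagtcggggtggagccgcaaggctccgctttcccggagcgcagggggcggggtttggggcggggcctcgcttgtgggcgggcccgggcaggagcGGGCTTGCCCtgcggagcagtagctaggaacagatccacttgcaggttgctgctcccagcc
SESN1, chr6:109008939-109009238, minus strand: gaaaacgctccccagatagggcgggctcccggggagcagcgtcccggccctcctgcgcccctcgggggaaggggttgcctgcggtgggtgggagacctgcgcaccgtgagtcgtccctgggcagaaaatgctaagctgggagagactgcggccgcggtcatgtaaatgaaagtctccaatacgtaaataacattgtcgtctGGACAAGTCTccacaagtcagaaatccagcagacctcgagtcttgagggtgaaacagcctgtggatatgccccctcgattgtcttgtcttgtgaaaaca
CYFIP2, chr5:157265873-157266172, plus strand: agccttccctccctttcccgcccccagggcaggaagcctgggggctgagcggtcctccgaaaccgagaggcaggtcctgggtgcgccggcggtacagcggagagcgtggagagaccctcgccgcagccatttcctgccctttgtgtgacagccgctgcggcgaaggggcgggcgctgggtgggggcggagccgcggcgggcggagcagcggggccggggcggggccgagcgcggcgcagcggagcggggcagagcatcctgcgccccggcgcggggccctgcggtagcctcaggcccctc

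Other motifs were searched in the same windows on both strands. The CCAAT box (CCAAT) was found in 19 of the 31 members with a window and in 34.6% of all promoters, the CHR element (TTTGAA) in 4 members and 15.2% of promoters. E2F elements (TTCCCGCC, TTTGGCGC or TTTCGCGC) were found in 10 members and 4.24% of promoters, and the E-box (CACGTG) in 4 members and 7.26%. The shares of all promoters are shares of windows, and a member can have several. By windows, 27 of 51 held a CCAAT box, 13 of 51 an E2F element, 4 of 51 a CHR element and 4 of 51 an E-box. The motifs and the promoters printed were chosen after the data were seen.

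POLH and XPC, which act on ultraviolet damage, rose, while DDB2 did not pass the test. POLH encodes polymerase eta, which copies past damaged bases, and was at 11.7 and 8.86 CPM in vector and at 16.5 and 16.9 CPM in JMJD3. The JMJD3 libraries were both high and close together, the vector libraries were farther apart, and the groups did not overlap. Its log2 fold change was 0.70 (SE 0.15, adjusted p = 0.0124, edgeR's quasi-likelihood test with Benjamini-Hochberg adjustment, higher in 2 of 2 JMJD3 libraries). By FPKM the values were 5.196 and 2.77 in vector and 6.13 and 5.14 in JMJD3, so that vector replicate 1 lay inside the range of JMJD3. The call was lost with limma on log2(FPKM + 1) (adjusted p = 0.224), on log2(FPKM + 0.1) (0.213) and with no filter on low counts (0.0589), in a range of 0.000448 to 0.224 over the 13 alternatives, the crossed block aside. The identifier of POLH is ENSG00000170734.

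XPC, which finds distorted DNA in nucleotide excision repair, was at 32.9 and 29.7 CPM in vector and at 39.2 and 43.6 CPM in JMJD3. Both JMJD3 libraries lay above both vector libraries. The log2 fold change was 0.40 (SE 0.11, adjusted p = 0.0276, edgeR's quasi-likelihood test with Benjamini-Hochberg adjustment, higher in 2 of 2 JMJD3 libraries). The call was lost without JMJD3 replicate 1 (0.48, adjusted p = 0.116), without JMJD3 replicate 2 (0.33, adjusted p = 0.332) and with no filter on low counts (adjusted p = 0.0795), in a range of 0.0135 to 0.332. DDB2, which recognises ultraviolet damage, was at 25.1, 27.0, 24.9 and 25.5 CPM in vector replicates 1 and 2 and JMJD3 replicates 1 and 2. RRM2B, a subunit of the p53-induced ribonucleotide reductase, was at 30.9, 23.0, 27.1 and 27.3 CPM in that order, with the vector libraries on either side of both JMJD3 libraries.

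Among the growth arrest and stress genes, BTG1 rose and the others did not pass the test. BTG1, an antiproliferative gene of the BTG family, was at 49.7 and 51.2 CPM in vector and at 68.8 and 63.1 CPM in JMJD3. The groups did not overlap, and the log2 fold change was 0.39 (SE 0.09, adjusted p = 0.0186, edgeR's quasi-likelihood test with Benjamini-Hochberg adjustment, higher in 2 of 2 JMJD3 libraries). The call was lost without JMJD3 replicate 1 (0.32, adjusted p = 0.296) and without JMJD3 replicate 2 (0.45, adjusted p = 0.134), in a range of 0.0152 to 0.296. On log2(FPKM + 0.1) it was 0.65. BTG2, its relative, was near 1 CPM, at 0.836, 0.996, 1.51 and 0.999 CPM in vector replicates 1 and 2 and JMJD3 replicates 1 and 2. The log2 ratio of BTG1 to BTG2 differed by -0.04 between the groups, and its values overlapped. It was 0.06 and -0.15 without vector replicates 1 and 2, and 0.19 and -0.28 without JMJD3 replicates 1 and 2, each left out in turn.

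GADD45A and GADD45B, stress sensors of the same family, had estimates on opposite sides of 0 and neither passed the test. GADD45A was at 7.61 and 6.89 CPM in vector and at 9.75 and 8.40 CPM in JMJD3 (log2 fold change 0.32, SE 0.14, adjusted p = 0.0981), with 0.21 without JMJD3 replicate 1. GADD45B was at 38.7 and 46.7 CPM in vector and at 34.5 and 31.9 CPM in JMJD3 (-0.36, SE 0.12, adjusted p = 0.0550). In both genes the groups did not overlap. GADD45B was called lower without vector replicate 1 (-0.53, adjusted p = 0.00481), with DESeq2's size factors (-0.40, 0.0470) and with DESeq2's Wald test (0.0258), in a range of 0.00481 to 0.377. Without vector replicate 2 it was at -0.22 (adjusted p = 0.0770). The log2 ratio of GADD45A to GADD45B was -2.35 and -2.76 in vector and -1.82 and -1.92 in JMJD3, a difference of 0.68 with an SD of 0.21 within groups. The exact permutation test, two-sided, gave p = 0.333, the smallest that 2 libraries against 2 allow.

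ZMAT3, a p53-induced regulator of RNA splicing and stability, was at 5.64 and 2.88 CPM in vector and at 6.62 and 6.37 CPM in JMJD3. The vector libraries lay far apart, and the test did not call the log2 fold change of 0.61 (SE 0.28, adjusted p = 0.128, edgeR's quasi-likelihood test with Benjamini-Hochberg adjustment). It was called in 2 of 13 alternatives, among them without vector replicate 1 (1.13, adjusted p = 0.00326, range over alternatives 0.00326 to 0.315), and was at 0.21 (adjusted p = 0.216) without vector replicate 2. SESN1, a stress-induced inhibitor of mTORC1 signalling, and PLK3, a stress kinase, had log2 fold changes of 0.17 and 0.00 with adjusted p of 0.374 and 0.992. That of SESN1 was 0.29 without JMJD3 replicate 1, 0.03 without JMJD3 replicate 2 and 0.09 without vector replicate 2. PLK2, another kinase of that family, had 2 and 2 reads in vector and 0 and 0 in JMJD3, all under the floor, so no fold or ratio to PLK3 is given. FDXR, a mitochondrial reductase that passes electrons to ferredoxin, had a log2 fold change of 0.06. TP53I3, an oxidoreductase gene, had 9 and 4 reads in vector and 7 and 13 in JMJD3 and did not pass the filter on low counts.

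None of the inhibitors of p53 signalling, MDM2, MDM4 and PPM1D, passed edgeR's test on all 4 libraries, and by unadjusted p only MDM4 was under 0.05. MDM2, the ubiquitin ligase that degrades p53, was at 28.2 and 21.4 CPM in vector and at 24.2 and 24.8 CPM in JMJD3. Both JMJD3 values lay between those of vector. MDM4, its partner, was at 13.0 and 12.7 CPM in vector and at 10.5 and 10.3 CPM in JMJD3 (log2 fold change -0.30, SE 0.11, adjusted p = 0.0632). MDM4 was called lower with DESeq2's size factors (adjusted p = 0.0466), without vector replicate 1 (-0.32, 0.0323) and without vector replicate 2 (-0.31, 0.0426), but on log2(FPKM + 0.1) its estimate was 0.06 (range of adjusted p 0.0323 to 0.907). PPM1D, a phosphatase that ends the response, was at 20.3, 18.1, 21.0 and 21.5 CPM in vector replicates 1 and 2 and JMJD3 replicates 1 and 2. The log2 ratio of MDM2 to MDM4 differed by 0.29 on CPM and by -0.09 on FPKM, and on CPM by 0.48 without vector replicate 1 and 0.11 without vector replicate 2.

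**Figure D2:**
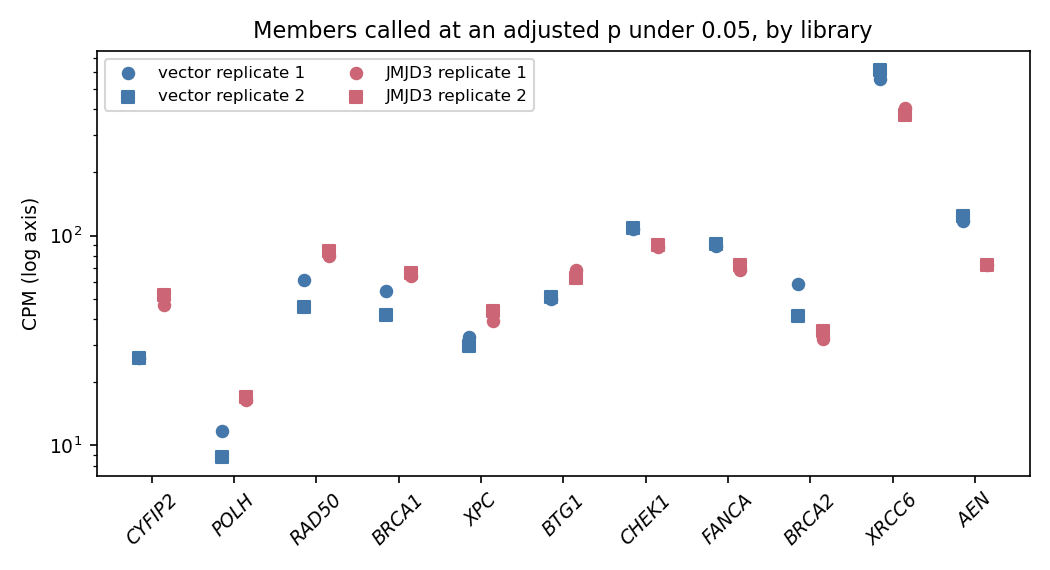
CPM, on a log axis, of the 11 members with an adjusted p under 0.05, in each of the 4 libraries. Blue marks are vector and red marks JMJD3, circles are replicate 1 and squares replicate 2, and in each of these genes the groups do not overlap.

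RAD50, of the complex that senses and tethers broken DNA ends, had the largest rise among the DNA repair genes. It was at 61.3 and 45.8 CPM in vector and at 80.3 and 84.5 CPM in JMJD3. Both JMJD3 libraries lay above both vector libraries, which differed among themselves. The log2 fold change was 0.62 (SE 0.14, adjusted p = 0.0156, edgeR's quasi-likelihood test with Benjamini-Hochberg adjustment, higher in 2 of 2 JMJD3 libraries). The call was lost with no filter on low counts (adjusted p = 0.0743, range over alternatives 0.000383 to 0.0743). RAD50 has the identifier ENSG00000113522.

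NBN, the partner of RAD50 in that complex, did not pass the test, and neither did TP53BP1, which steers breaks to end joining, or PARP1, which marks DNA breaks with ADP-ribose. NBN was at 59.5 and 42.5 CPM in vector and at 51.0 and 56.1 CPM in JMJD3, so that vector lay on either side of JMJD3. Its log2 fold change was 0.07, with 0.30 (adjusted p = 0.0355, range over alternatives 0.0355 to 0.998) without vector replicate 1 and -0.15 without vector replicate 2. TP53BP1 was at 85.1, 70.2, 71.1 and 76.5 CPM and PARP1 at 555, 519, 493 and 498 CPM in vector replicates 1 and 2 and JMJD3 replicates 1 and 2. Their log2 fold changes were -0.07 and -0.12.

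BRCA1 and BRCA2, which act in homologous recombination, moved in opposite directions. BRCA1 was at 54.6 and 41.8 CPM in vector and at 64.0 and 66.3 CPM in JMJD3. BRCA2, which loads the recombinase on single strands, was at 58.9 and 41.3 CPM in vector and at 32.2 and 35.2 CPM in JMJD3. In JMJD3 the former was high and the latter low, and neither gene's groups overlapped. The log2 fold changes were 0.44 for BRCA1 (SE 0.14, adjusted p = 0.0427, higher in 2 of 2) and -0.57 for BRCA2 (SE 0.17, adjusted p = 0.0373, lower in 2 of 2 JMJD3 libraries), by edgeR's quasi-likelihood test with Benjamini-Hochberg adjustment.

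The log2 ratio of BRCA1 to BRCA2 was -0.11 and 0.02 in vector and 0.99 and 0.92 in JMJD3. The difference of 1.00 was large beside the SD of 0.07 within groups, and both genes were lower in vector replicate 2 than in vector replicate 1. The exact permutation test, two-sided, gave p = 0.333, the smallest possible. On FPKM the difference was 1.36. The BRCA1 call was lost without JMJD3 replicate 1 (0.46, adjusted p = 0.115), without JMJD3 replicate 2 (0.41, 0.184), with limma on log2(FPKM + 0.1) (0.20, 0.241), on log2(FPKM + 1) (0.19, 0.246) and with no filter (0.142), in a range of 0.00261 to 0.246. Without vector replicate 2 BRCA1 was at 0.26. The BRCA2 call was lost without JMJD3 replicate 1 (-0.51, adjusted p = 0.0996) and with no filter (0.138), in a range of 0.00155 to 0.138. BRCA2 was at -0.33 without vector replicate 1 and at -1.17 on log2(FPKM + 0.1).

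**Figure D3:**
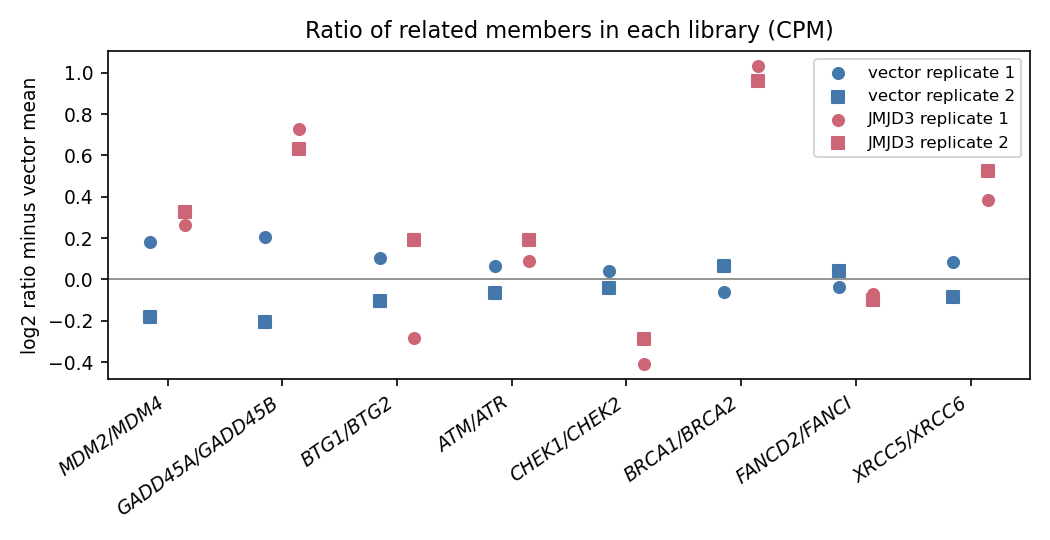
Log2 ratio of CPM between related members in each library, minus the vector mean of that ratio. Circles are replicate 1, squares replicate 2, blue vector and red JMJD3, and the BRCA1/BRCA2 ratio shows the widest gap, 1.00 on the log2 scale.

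Of the 3 Fanconi anemia genes, which serve the repair of DNA crosslinks, FANCA fell. FANCA, of the core complex, was at 89.6 and 91.1 CPM in vector and at 68.6 and 72.3 CPM in JMJD3. Both JMJD3 libraries were low and the groups did not overlap (log2 fold change -0.36, SE 0.08, adjusted p = 0.0164, edgeR's quasi-likelihood test with Benjamini-Hochberg adjustment, lower in 2 of 2). The call was lost in 3 of 13 alternatives, among them without JMJD3 replicate 1 (-0.32, adjusted p = 0.263) and without JMJD3 replicate 2 (-0.40, 0.168), in a range of 0.00485 to 0.263, and on log2(FPKM + 0.1) the estimate was -0.62. FANCD2 and FANCI, which form the pair that is ubiquitinated at crosslinks, had log2 fold changes of -0.18 and -0.10 and were not called (adjusted p = 0.139 and 0.420). FANCI was at -0.04 without vector replicate 1 and at -0.18 without vector replicate 2. FANCD2 was called lower without vector replicate 2 (-0.23, adjusted p = 0.0321) and on log2(FPKM + 0.1) (-0.62, 0.0209), in a range of 0.0209 to 0.610. By FPKM, FANCD2 was at 42.0 and 47.1 in vector and at 31.7 and 26.5 in JMJD3, while FANCI was at 55.7 and 45.4 in vector and at 57.1 and 57.9 in JMJD3.

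XRCC6, the Ku70 subunit that binds broken ends in end joining, fell. It was at 555 and 614 CPM in vector and at 405 and 375 CPM in JMJD3. Both JMJD3 libraries were low and far from vector. The log2 fold change was -0.58 (SE 0.08, adjusted p = 0.00367, edgeR's quasi-likelihood test with Benjamini-Hochberg adjustment, lower in 2 of 2 JMJD3 libraries), just short of 1.5-fold, and XRCC6 was called under all 13 alternatives. XRCC5, the Ku80 subunit, was at 460 and 452 CPM in vector and at 413 and 422 CPM in JMJD3 (-0.13, SE 0.07, adjusted p = 0.180). The log2 ratio of XRCC5 to XRCC6 differed by 0.46 between the groups, with an SD of 0.11 within groups (exact permutation p = 0.333, two-sided, the smallest possible).

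PRKDC, the kinase that Ku recruits, gave different results by counts and by FPKM. By CPM it was at 343 and 244 in vector and at 213 and 247 in JMJD3, where vector replicate 2 lay inside the range of JMJD3. By FPKM it was at 66.6 and 68.9 in vector and at 32.0 and 30.7 in JMJD3, with no overlap. The log2 fold change was -0.35 on counts (SE 0.16, adjusted p = 0.125) and -1.11 on log2(FPKM + 0.1) (limma, adjusted p = 0.00404). It was called in 5 of 13 alternatives, among them without vector replicate 2 (-0.58, adjusted p = 0.0113) and with DESeq2's Wald test (0.0350), in a range of 0.00404 to 0.343, and without vector replicate 1 it was at -0.12 (adjusted p = 0.343). LIG4, the ligase of this route, was at 23.5 and 14.6 CPM in vector and at 21.7 and 23.7 CPM in JMJD3. Its log2 fold change of 0.26 was not called, and was 0.60 (adjusted p = 0.00618, range 0.00618 to 0.699) without vector replicate 1 and -0.05 without vector replicate 2.

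Of the checkpoint kinases, CHEK1 fell and ATM, ATR and CHEK2 did not pass the test. CHEK1 was at 108 and 109 CPM in vector and at 88.2 and 90.0 CPM in JMJD3. Within each group the libraries were nearly equal, and the groups did not overlap (log2 fold change -0.28, SE 0.08, adjusted p = 0.0300, edgeR's quasi-likelihood test with Benjamini-Hochberg adjustment, lower in 2 of 2). The call was lost in 7 of 13 alternatives, among them without JMJD3 replicate 1 (-0.27, adjusted p = 0.345), without JMJD3 replicate 2 (-0.29, 0.308), with upper quartile scaling (-0.24, 0.0586), with no filter (0.0586), on log2(FPKM + 1) (-0.22, 0.0948) and on log2(FPKM + 0.1) (-0.22, 0.101), in a range of 0.00830 to 0.345. CHEK2 was at 20.05, 21.3, 22.4 and 21.0 CPM in vector replicates 1 and 2 and JMJD3 replicates 1 and 2. The log2 ratio of CHEK1 to CHEK2 differed by -0.35, with an SD of 0.07 within groups (exact permutation p = 0.333, two-sided, the smallest possible).

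ATM, the kinase that answers double-strand breaks, was at 38.96 and 26.6 CPM in vector and at 39.6 and 43.9 CPM in JMJD3. ATR, which answers stalled replication, was at 35.6 and 26.7 CPM in vector and at 35.6 and 36.8 CPM in JMJD3. In both genes vector replicate 1 was close to JMJD3 and vector replicate 2 was lower. The log2 fold changes were 0.35 and 0.22, and without vector replicate 1 they were 0.61 (adjusted p = 0.00547, range 0.00547 to 0.437) and 0.40 (adjusted p = 0.00873, range 0.00873 to 0.790). Without vector replicate 2 they were 0.10 and 0.02 (adjusted p = 0.393 and 0.790). MSH6, of mismatch repair, was at 175, 155, 158 and 163 CPM in vector replicates 1 and 2 and JMJD3 replicates 1 and 2, a log2 fold change of -0.04.

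The vector libraries differed from each other across the DNA repair genes. Vector replicate 2 was below vector replicate 1 in 14 of 18 of them, with a median log2 difference of -0.23, beside 0.00 over all tested genes. In the 17 p53 targets the median difference was -0.03. Exon length here counts the bases covered by any annotated exon of a gene, so it is not the length of a single exon or transcript. By this measure the DNA repair genes have a median exon length of 13568 bases, the p53 targets of 5391 and all tested genes of 4610. Among the 10% of genes with the greatest exon length (1494 genes) vector replicate 2 minus vector replicate 1 was -0.22 in the median. It was 0.16 among the 10% with the smallest exon length. Across 14938 genes, which are not independent replicates, Spearman's rho of exon length with this difference was -0.34, and with JMJD3 replicate 2 minus JMJD3 replicate 1 it was 0.26. Within lane 17 alone, where vector replicate 2 stands by itself and is assumed to vary like JMJD3, RAD50, BRCA1, ATM, ATR, NBN and LIG4 were called higher, and XRCC6, BRCA2, FANCA and CHEK1 lower. The part of lane and of exon length in these results was not tested, and this description was chosen after the data were seen.

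By FPKM, XRCC6 was the most abundant member, at 280 and 324 in vector and at 202 and 185 in JMJD3. PARP1 followed at 163 to 178 and XRCC5 at 136 to 152, and these 3 ranges did not overlap. Of the p53 targets AEN was the highest in vector, at 43.7 and 49.6, with GADD45B at 36.3 and 43.6. In JMJD3 that order was turned, with GADD45B at 31.7 and 30.2 and AEN at 27.0 and 28.3. The lowest tested members were BTG2, at 0.456 to 0.862 FPKM, and ZMAT3, at 0.389 to 0.865 FPKM, whose ranges overlapped. Together the p53 targets summed to 434, 427, 431 and 433 CPM in vector replicates 1 and 2 and JMJD3 replicates 1 and 2, a total that differed less between the groups than within vector. In that total AEN was lower in JMJD3 while CYFIP2 and BTG1 were higher. The DNA repair genes summed to 2952 and 2718 CPM in vector and to 2455 and 2510 CPM in JMJD3, with XRCC6, PARP1 and XRCC5 the largest parts.

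Among regulators of p53, HIPK2, a kinase, rose (log2 fold change 0.86), and TP73 (-1.30), KAT5 (-0.73) and USP7 (-0.41) fell, at an adjusted p under 0.05 by edgeR's quasi-likelihood test with Benjamini-Hochberg adjustment and in 2 of 2 JMJD3 libraries each. The HIPK2 call was lost with limma on log2(FPKM + 1) (adjusted p = 0.111), on log2(FPKM + 0.1) (0.133) and with no filter (0.0839), in a range of 9.07e-06 to 0.133. USP7, which removes ubiquitin from MDM2 and p53, lost its call without JMJD3 replicate 1 (-0.36, adjusted p = 0.148) and without JMJD3 replicate 2 (-0.46, 0.0652), in a range of 0.000770 to 0.148. EP300, TP53RK, RPL5, RPL11, RCHY1 and COP1 were not called, and TP63 and CDKN2A did not pass the filter on low counts. Without vector replicate 1 EP300 was called higher (0.30, adjusted p = 0.0474) and without vector replicate 2 lower (-0.37, 0.0295), in a range of 0.0295 to 0.960.

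Of 26 other p53 targets tested, 7 rose and 5 fell, 26.9% and 19.2% beside 21.6% and 19.1% of all tested genes, with a median log2 fold change of 0.14. That median was 0.08 without vector replicate 1 and 0.09 without vector replicate 2, and 0.06 and 0.11 with limma on log2(FPKM + 1) and log2(FPKM + 0.1). The largest rises were in APAF1, of the apoptosome (1.37), ANKRA2 (0.84) and THBS1, an antiangiogenic matrix protein (0.81). The largest falls were in DRAM1, a lysosomal autophagy gene (-1.56), TRIAP1 (-0.71) and BBC3, which encodes the death protein PUMA (-0.60). CDKN1A, the main arrest gene downstream of p53, was at 0.621 and 1.10 CPM in vector and at 1.19 and 0.864 CPM in JMJD3, where the groups overlapped (0.25, adjusted p = 0.591, edgeR's quasi-likelihood test with Benjamini-Hochberg adjustment). Its estimate was -0.14 without vector replicate 1, 0.72 without vector replicate 2, 0.00 without JMJD3 replicate 1 and 0.46 without JMJD3 replicate 2, and it was called in none of these. The BBC3 call was lost without vector replicate 2 (-0.39, adjusted p = 0.0937), without JMJD3 replicate 2 (-0.47, 0.191), on log2(FPKM + 1) (0.0919), on log2(FPKM + 0.1) (0.0837) and with no filter (0.110), in a range of 0.00804 to 0.191. ANKRA2 lost its call on log2(FPKM + 1) (0.45, adjusted p = 0.131), on log2(FPKM + 0.1) (0.53, 0.123) and with no filter (0.0662), in a range of 0.000219 to 0.131. In each of these 3 fits 4 genes of the list rose and 3 fell. Of the list, 8 fell without vector replicate 1, 9 rose there, and 2 fell without JMJD3 replicate 2.

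Of 112 genes tested in 7 further repair and checkpoint lists, 22 rose (19.6%) and 18 fell (16.1%), beside 21.6% and 19.1% of all tested genes. Without vector replicate 1 the counts were 38 and 28, without JMJD3 replicate 1 they were 14 and 4, and without JMJD3 replicate 2 they were 13 and 5. With limma they were 8 and 13 on log2(FPKM + 1) and 9 and 14 on log2(FPKM + 0.1). With no filter they were 12 and 11, and with upper quartile scaling 30 and 14. The shares of the single lists were not tested against those of all tested genes. Of 24 other homologous recombination genes 7 rose and 2 fell (29.2% and 8.33%), with the largest rises in RMI1 (0.94), RAD54B (0.92) and BRIP1 (0.85), a helicase partner of BRCA1, and falls in XRCC3 (-0.34) and RAD54L (-0.29). With limma 2 rose and 0 fell on log2(FPKM + 1), and 3 and 1 on log2(FPKM + 0.1). No filter gave 3 and 0, and upper quartile scaling 10 and 0. Without vector replicate 1, 13 rose and 4 fell, while 4 rose without JMJD3 replicate 1 and 3 without JMJD3 replicate 2. The calls of XRCC3 (adjusted p = 0.296 and 0.211) and RAD54L (0.398 and 0.359) were lost without JMJD3 replicate 1 or JMJD3 replicate 2, in ranges of 0.00386 to 0.296 and 0.0121 to 0.398. Both were also lost with upper quartile scaling, with no filter and with limma on FPKM, where RAD54B and BRIP1 were lost too, and BRIP1 again with no filter. BRIP1 was at 1.30 without vector replicate 1 and at 0.49 without vector replicate 2. Of 13 other Fanconi anemia genes 3 rose (23.1%), FANCF (1.21), FANCM (0.88) and FANCL (0.30), and FAN1 (-0.60) and FANCC (-0.44) fell (15.4%). The FANCL and FANCC calls were lost without JMJD3 replicate 1 (0.315 and 0.172) or JMJD3 replicate 2 (0.420 and 0.176), and the FAN1 call without JMJD3 replicate 1 (0.0961), with the adjusted p reaching 0.420, 0.288 and 0.137 for FANCL, FANCC and FAN1 over the alternatives, limma on FPKM included, while FAN1 was at -0.35 without vector replicate 1. FANCM, FANCL and FANCC were not called with limma on FPKM, FANCL and FAN1 not with no filter, and FANCL not with DESeq2's size factors or Wald test.

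Among 11 other end joining genes 4 rose (36.4%, against 21.6% of all tested genes), with the largest rises in APLF (0.89), POLL (0.57) and POLM (0.53), and the other 7 were not called. Without vector replicate 1 the list had 5 rises and 1 fall. POLL and POLM, which fill gaps at broken ends, lost their calls without JMJD3 replicate 2 (adjusted p = 0.0682 and 0.112, edgeR's quasi-likelihood test with Benjamini-Hochberg adjustment), and POLM also without JMJD3 replicate 1 (0.0563). The adjusted p ranged over alternatives from 0.00330 to 0.0682 for POLL and from 0.00232 to 0.112 for POLM, where POLL was lost with no filter and POLM with limma on FPKM too, and 2 genes of the list rose without JMJD3 replicate 1 and 1 without JMJD3 replicate 2. Of 6 other mismatch repair genes PMS2 (0.82) and PMS1 (0.65) rose (33.3%), and without vector replicate 1 there were 4. Base excision repair had 2 rises in 17 genes (11.8%), NEIL2 (0.87) and MUTYH (0.68), and 5 falls (29.4%, against 19.1% of all tested genes), the largest in NEIL1 (-1.14), FEN1 (-0.55) and TDG (-0.53). Without vector replicate 1 there were 4 rises and 9 falls and MUTYH was at 0.45, without vector replicate 2 there were 3 rises and 6 falls, and without JMJD3 replicate 1 there were 1 rise and 3 falls, with MUTYH not called (adjusted p = 0.0662, range 0.000546 to 0.102). Without JMJD3 replicate 2 there were 3 falls. Neither rise was called with limma on FPKM or with no filter, nor was the fall of TDG with limma on FPKM.

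Nucleotide excision repair had 3 rises and 3 falls in 19 genes, 15.8% each, beside 21.6% and 19.1% of all tested genes. ERCC4 (1.46), ERCC6 (1.22) and GTF2H1 (0.35) rose, and XAB2 (-0.48), DDB1 (-0.42) and ERCC5 (-0.26) fell. ERCC6 was at 0.12 and ERCC4 at 0.68 on log2(FPKM + 0.1), neither of them called (limma, adjusted p = 0.785 and 0.207, the latter the highest over its alternatives from 1.76e-11, the former over its own from 1.17e-06). Without JMJD3 replicate 1 or JMJD3 replicate 2 no gene of this list fell in edgeR's test, with adjusted p of 0.0525 and 0.0641 for DDB1, 0.0859 and 0.0536 for XAB2 and 0.354 and 0.349 for ERCC5, and GTF2H1 was not called (0.191 and 0.329). GTF2H1 and ERCC5 were also lost with limma on FPKM and with no filter, and ERCC5 with upper quartile scaling. Without vector replicate 1 there were 5 falls, and without vector replicate 2 there were 5 rises and 5 falls. Of 22 other checkpoint genes ABRAXAS1 rose (0.90) and 6 fell (27.3%), the largest falls being in HUS1 (-0.57), H2AX (-0.47) and UIMC1 (-0.43). Which checkpoint genes were called depended on the library left out. The median log2 fold change of this list was -0.08, and was -0.04 without vector replicate 1 and -0.20 without vector replicate 2. It was -0.07 without JMJD3 replicate 1 and -0.08 without JMJD3 replicate 2. HUS1 lost its call without JMJD3 replicate 1 (adjusted p = 0.112), H2AX without JMJD3 replicate 2 (0.0886) and UIMC1 without either (0.102 and 0.285). H2AX and UIMC1 were also lost with no filter, and UIMC1 with limma on FPKM.

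Markers of proliferating cells were mostly lower in JMJD3. Of 25 such markers tested 16 fell (64.0%, against 19.1% of all tested genes) and 2 rose, with a median log2 fold change of -0.33, and together they were at 7283 and 7195 CPM in vector and at 5636 and 5675 CPM in JMJD3. The largest falls were in MKI67 (-0.84), MCM7 (-0.73) and BIRC5 (-0.66), while CCNE2 (0.61) and TOP2A (0.54) rose. Fewer of these markers were called lower without JMJD3 replicate 1 or JMJD3 replicate 2, and the same held over all tested genes. The median of the list was -0.35 without JMJD3 replicate 1 and -0.31 without JMJD3 replicate 2. CCNE2 lost its call without JMJD3 replicate 2, and TOP2A was at 0.35 without vector replicate 2. Neither of these 2 rises was called with limma on FPKM or with no filter. The part of proliferation in the changes of the DNA repair genes was not tested.

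**Figure D4:**
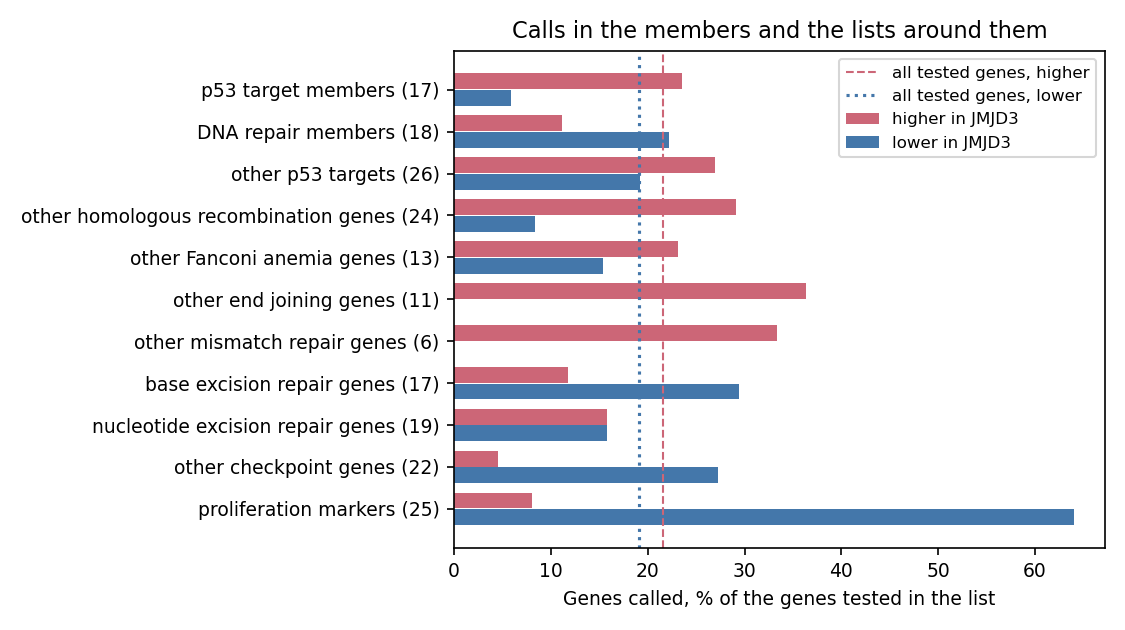
Share of tested genes called higher (red) or lower (blue) in JMJD3, in % of each list, with the number tested in parentheses. The dashed and dotted lines mark 21.6% and 19.1% of all tested genes, and the proliferation markers stand out with 64.0% lower.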

How the data were processed

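Gene values came from 1 deposited table with, for each of the 4 libraries, an estimated count and an FPKM. The deposited estimated counts are mostly not whole (98.5% of the nonzero ones) and equal estimated reads times 1 constant per library. The authors' FPKM values divide such reads by transcript length and depth. Which tool made either column is not stated: the submitters' processing notes name CASAVA 1.8, TopHat2 2.0.4, RSEM, edgeR and GRCh38, the series text BWA with ANOVA and TopHat with Cufflinks, and the methods of the study STAR with HTSeq-count on another build. Libraries were made with a TruSeq RNA kit. The labels give DMEM and Trizol, the study RPMI-1640 and a column kit. The authors' comparison columns (log fold change, p, FDR and significance) were not used.

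Counts were rounded, filtered with filterByExpr (15246 genes kept), given TMM factors and tested in edgeR 4.0.16 (glmQLFit, glmQLFTest, R 4.3.3), with no covariate and Benjamini-Hochberg adjustment over all tested genes. The SE is the size of the log2 fold change divided by the square root of F. Called genes had an adjusted p below 0.05. The floor was 3 reads in each library after division by its constant, which left 85.4% to 89.7% of values whole within 0.01. The scripts were tested on simulated data. There, changes of 1.5-fold were often not called, and the pass mark of that test was loosened after it first failed, so a member that was not called is not shown to be unchanged.

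Alternatives were DESeq2's size factors, upper quartile scaling, the Wald test of DESeq2 1.42.0, limma 3.58.1 on FPKM as log2 with 1 or 0.1 added, no filter, at least 10 counts in every library, a replicate block, and leaving out each library. After the data were seen, 2 more were added: counts with the library constant divided out, and a crossed block, which is left out of all ranges of adjusted p and counts of alternatives. Full values were given for members called at 1.5-fold or more. The other called members were shown in full too, which was chosen after their values were seen. In each further list up to 3 called genes per direction were named, besides CDKN1A and regulators of p53 that were not called or not tested. For the regulators of p53 no count or median is given, since 1 gene of that list is not reported here. The members and lists were chosen with earlier results of these data known. Promoters were those of RefSeq on GRCh38.p14.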

Additional observations from a re-analysis of the deposited data

How the results depend on the processing

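None of the 11 called members changed direction under any alternative, and AEN, CYFIP2 and XRCC6 were called under all 13, the crossed block aside. With no filter on low counts, which tests more genes, 2 p53 targets were higher in place of 4, 0 DNA repair genes higher in place of 2 and 2 lower in place of 4, and over all tested genes 1893 were higher in place of 3292 and 1776 lower in place of 2906. With limma, 1 DNA repair gene was called higher in place of 2, and 2 were lower by 2-fold in place of 0, while all genes higher numbered 2046 on log2(FPKM + 1) and 2032 on log2(FPKM + 0.1), where the median of the p53 targets was 0.27 in place of 0.14. The p53 targets called lower were 3 with DESeq2's size factors and 2 with its Wald test, in place of 1. The cause was not tested.

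Several estimates of members that were not called changed sign, most of them near 0, and MDM4 (-0.30 on counts) did so on FPKM. MDM2 (0.022) and MSH6 (0.0025) did so with upper quartile scaling, and PLK3 (-0.033) and RRM2B (-0.016) with DESeq2's size factors and Wald test. On log2(FPKM + 1) and log2(FPKM + 0.1) this held for MDM4 (0.036 and 0.059), PLK3 (-0.21 and -0.24), DDB2 (0.054 and 0.057), NBN (-0.021 and -0.021), FANCI (0.19 and 0.19) and MSH6 (0.16 and 0.16). Log2 ratios on FPKM differed between the groups by -0.093 for MDM2/MDM4, 0.33 for BTG1/BTG2, 0.27 for ATM/ATR, -0.43 for CHEK1/CHEK2, 1.36 for BRCA1/BRCA2 and -0.81 for FANCD2/FANCI, in place of 0.29, -0.04, 0.14, -0.35, 1.00 and -0.09. The cause was not tested.

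With 1 library left out, p53 targets numbered 2 to 5 higher, 1 to 3 lower and 0 to 1 higher by 2-fold, DNA repair genes 1 to 6 higher and 1 to 6 lower, and all tested genes 1920 to 4343 higher and 1133 to 4183 lower. The lone library of a group was assumed to vary like the other group. Since the number called over all tested genes changed too, counts of calls in these fits are not to be set beside the shares of the full fit. On CPM the log2 ratios of ATM/ATR and FANCD2/FANCI differed by 0.074 and -0.048 without vector replicate 2. Without vector replicate 1 they differed by 0.21 and -0.13. Estimates ranged from 0.030 to 0.29 for SESN1, -0.18 to -0.042 for FANCI, 0.066 to 0.19 for PPM1D, 0.12 to 0.72 for BTG2, 0.21 to 0.43 for GADD45A, -0.20 to 0.15 for MDM2, -0.12 to 0.092 for PLK3, -0.082 to 0.16 for FDXR, -0.18 to 0.21 for RRM2B, -0.14 to 0.0053 for DDB2, -0.014 to 0.11 for CHEK2, -0.15 to 0.30 for NBN, -0.20 to 0.034 for TP53BP1, -0.046 to 0.60 for LIG4 and -0.12 to 0.017 for MSH6.

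Replicate numbers were shared by both groups, but nothing says that they pair the libraries, and the deviations of replicate 1 from the group means correlated at -0.146 across genes. With the replicate block 5 p53 targets were higher and 1 lower, and 2 DNA repair genes higher and 3 lower, among 3267 higher and 2415 lower genes in all. The block ended the calls of FANCA (adjusted p = 0.0541), CHEK1 (0.132), RAD54L (0.155), XRCC3 (0.0773), FANCL (0.154), ERCC5 (0.154) and GTF2H1 (0.0762) among the genes named, and under it ZMAT3 (0.67, adjusted p = 0.00676) and PRKDC (-0.34, 0.0460) were called. With the crossed replicate block, chosen after the data were seen, the counts were 6 and 3 for p53 targets, 3 and 5 for DNA repair genes and 4335 and 3772 in all.

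PLK2, TP53INP1, TP53I3 and PHLDA3 had too few reads to pass the filter on low counts and were not tested with that filter. Counts near the floor cover counting error only.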
